A study of Homo sapiens with 16 samples.

Results

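The enzymes that write, copy and remove cytosine methylation, with UHRF1 and its relative UHRF2, were examined in T-lineage acute lymphoblastic leukemia (T-ALL) cells after knock-down of USP7, a deubiquitylating enzyme. The 8 genes, UHRF1, UHRF2, DNMT1, DNMT3A, DNMT3B, TET1, TET2 and TET3, were chosen by name from the 57820 genes of the count table, because the UHRF1 and DNMT1 proteins are substrates of USP7. A row was matched for 7 of them. The current identifier of UHRF1 matched no row, and since the table may hold the gene under an earlier identifier, which no annotation used here pairs with its symbol, UHRF1 is not analysed here.

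RNA was sequenced from 2 established T-ALL cell lines, Jurkat and HSB-2, which the labels describe as TAL1-positive. Each line was studied as untransduced wild-type cells, with a scrambled control, and with the USP7 short hairpin shRNA-4057 or shRNA-4058, giving 2 libraries in each of the 8 groups. The control is called a scrambled siRNA in the labels of the samples and a scrambled shRNA in the design of the series. The study delivered its hairpins by lentivirus and selected the cells for GFP or with puromycin, and which selection these libraries had is not given in the sources used here. Levels are given as CPM, counts scaled to a common library size with TMM factors. Differences are log2 fold changes with their standard error (SE), tested with edgeR's quasi-likelihood F-test, and a gene is said to rise or fall where its Benjamini-Hochberg adjusted p over all genes tested was under 0.05. The labels do not say whether replicates were separate cultures, so p-values measure the spread between these libraries, which may be technical.

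Methylation at CpG sites is copied after each round of DNA replication. UHRF1 binds the half-methylated DNA left by the replication fork and recruits DNMT1, which methylates the new strand, while DNMT3A and DNMT3B can methylate sites that had none. The TET enzymes oxidise methylcytosine with alpha-ketoglutarate as cofactor, which leads to demethylation by dilution or by base excision repair. DNMT3A and TET2 are among the genes most often mutated in blood cancers. USP7 removes ubiquitin from proteins, and RNA counts measure transcripts and say nothing of the stability of the UHRF1 or DNMT1 protein.

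Library totals lay between 76602847 and 235467749 counts, and the 7 genes had at least 2656 counts in each library. Target knock-down was partial. USP7 fell to 0.370-fold of scrambled with shRNA-4057 and 0.630-fold with shRNA-4058 in Jurkat, and to 0.655-fold and 0.710-fold in HSB-2. All 15 T-lineage markers reached 1 CPM in the Jurkat groups and 13 to 15 of them in the HSB-2 groups, where CD28 and CD2 were low. Their summed level moved with the groups, from 4220 to 4330 CPM in Jurkat scrambled to 3340 to 3610 CPM in the Jurkat hairpin libraries, and from 3380 to 3500 CPM in HSB-2 scrambled to 4310 to 4930 CPM in the HSB-2 hairpin libraries. In the pooled comparison 7 of these 15 markers fell and 1 rose in Jurkat, where 28% of all genes changed. In HSB-2, where 38.1% of all genes changed, 13 rose and none fell. HSB-2 wild-type libraries summed to 3900 to 3920 CPM, above scrambled. There 13 of the 15 were lower in scrambled than in wild-type cells and none higher (34.1% of all genes differed). The 14 markers of other cell types summed to 32.7 to 71.3 CPM in Jurkat and 5.85 to 12.9 CPM in HSB-2 libraries, with 1 to 3 of them at 1 CPM or more in a group. HBB was at 0 in each group, and the B-lineage marker CD79A was at 62.7 CPM in Jurkat scrambled against 21.5 to 35.5 CPM in the other Jurkat groups. The part of either marker list in the results that follow was not tested, and in bulk RNA fewer cells of a type cannot be told apart from less RNA per cell.

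TET3 in Jurkat and TET2 in HSB-2 had the largest pooled responses to the hairpins among the 7 genes, and the DNA just before the annotated first base of each TET gene is shown here so that the family can be compared. The sequences are the 250 bases upstream of a RefSeq start (from a table on GRCh38.p14), each with 1 exact match on its chromosome in GRCh37, the build of the counts, where they are written on the plus strand, 5′ to 3′.
TET1, chr10:70319844-70320093: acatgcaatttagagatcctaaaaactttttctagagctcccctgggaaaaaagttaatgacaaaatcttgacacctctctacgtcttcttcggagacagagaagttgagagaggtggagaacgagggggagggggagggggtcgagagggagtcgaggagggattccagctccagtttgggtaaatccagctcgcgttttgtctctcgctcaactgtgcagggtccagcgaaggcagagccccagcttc
TET2, chr4:106066782-106067031: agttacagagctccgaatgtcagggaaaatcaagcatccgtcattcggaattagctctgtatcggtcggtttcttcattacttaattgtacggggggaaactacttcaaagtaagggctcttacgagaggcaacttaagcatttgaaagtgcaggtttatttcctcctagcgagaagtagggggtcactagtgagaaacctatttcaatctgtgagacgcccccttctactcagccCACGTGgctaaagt
TET3, chr2:74211787-74212036: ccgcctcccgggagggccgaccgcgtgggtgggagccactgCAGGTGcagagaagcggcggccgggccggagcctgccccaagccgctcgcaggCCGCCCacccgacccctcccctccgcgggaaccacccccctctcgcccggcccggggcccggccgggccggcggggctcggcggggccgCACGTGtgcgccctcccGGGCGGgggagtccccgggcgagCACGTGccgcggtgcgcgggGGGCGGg
Capitals mark matches, on either strand, to the E-box form CAGGTG, the E-box form CAGCTG, the E-box form CATCTG, the E-box form CACGTG, the GC box GGGCGG, the CCAAT box, the E2F form TTTCCCGC and the E2F form TTTGGCGC. TET3 held 2 CACGTG, 1 CAGGTG and 3 GGGCGG matches, and none overlapped another. TET2 held a single CACGTG, beginning 14 bases before the start, and TET1 held no match. Of 35093 upstream windows of the same length in that table, 6.3% held CACGTG, 17.5% CAGGTG, 14.0% CAGCTG, 12.2% CATCTG, 42.6% GGGCGG, 32% CCAAT, 1.4% TTTCCCGC and 0.5% TTTGGCGC. The windows also differed in CpG content. TET3 had 37 CpG sites in 84.0% GC, TET2 had 10 in 45.6% and TET1 had 9 in 51.6%, and the median window held 11. Matches are a description of these letters, and other starts exist: the table lists 3 for TET1, 2 for TET2 and 2 for TET3. The other TET2 window had 34 CpG sites in 72.8% GC and 5 GGGCGG matches. The other TET3 window had 27 in 79.2%, with 1 GGGCGG and 1 CCAAT match. The other TET1 windows had 4 and 11 CpG sites, the first with 1 CAGCTG and 2 CCAAT matches and the second with 2 CCAAT.

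The first question was how the genes differ between the lines before any transduction. In wild-type cells 6 of the 7 genes differed between HSB-2 and Jurkat, where 68.1% of all genes tested did. The widest gap was in DNMT3B, a de novo methyltransferase. Its 2 Jurkat wild-type libraries had 34.2 and 33.6 CPM, and its 2 HSB-2 wild-type libraries had 162 and 163 CPM. The lines did not overlap, and HSB-2 was 4.79-fold higher (log2 2.26, SE 0.042, adjusted p = 1.7e-23). TET2 was 2.37-fold higher in HSB-2 (118 and 120 CPM against 53.1 and 47.3 CPM, adjusted p = 3.2e-16), and TET1 1.64-fold higher (111 and 111 against 68.4 and 66.7 CPM, adjusted p = 3.2e-13). TET3 was also higher (log2 0.16, SE 0.035, adjusted p = 0.00029), but not past the threshold with upper-quartile in place of TMM scaling (0.082, adjusted p = 0.057). DNMT3A was lower in HSB-2 (log2 -0.27, SE 0.036, adjusted p = 3.3e-07) and so was UHRF2 (log2 -0.16, SE 0.048, adjusted p = 0.0054). UHRF2 lost its call when Jurkat wild-type replicate 1 was left out (adjusted p = 0.052) or when scrambled libraries were compared (-0.027, adjusted p = 0.62). DNMT1 was at 431 and 445 CPM in Jurkat and 431 and 425 CPM in HSB-2, with a difference of -0.034 (95% confidence interval -0.11 to 0.041, adjusted p = 0.42). With upper-quartile scaling DNMT1 was lower in HSB-2 (-0.11, adjusted p = 0.017), as it was with an offset for GC content and length (-0.15, adjusted p = 1.3e-06).

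Per kilobase of exon, which allows genes to be compared with each other, DNMT1 was the highest of the 7 in both wild-type lines, at 28.5 ± 0.64 CPM per kb (SD, n = 2) in Jurkat and 27.8 ± 0.27 CPM per kb in HSB-2. The lowest per kb was TET2, at 3.05 ± 0.25 CPM per kb in Jurkat and 7.23 ± 0.11 CPM per kb in HSB-2. In HSB-2 DNMT3B came second at 23.6 ± 0.039 CPM per kb, whereas in Jurkat it came sixth at 4.93 ± 0.056 CPM per kb. Dividing by the length of the canonical transcript in place of all exons left DNMT1 first (83.1 and 81.2 CPM per kb) and TET2 last in Jurkat (5.24 CPM per kb), but in HSB-2 TET1 was then last at 11.6 CPM per kb, just under TET2 at 12.4 CPM per kb.

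**Figure D1:**
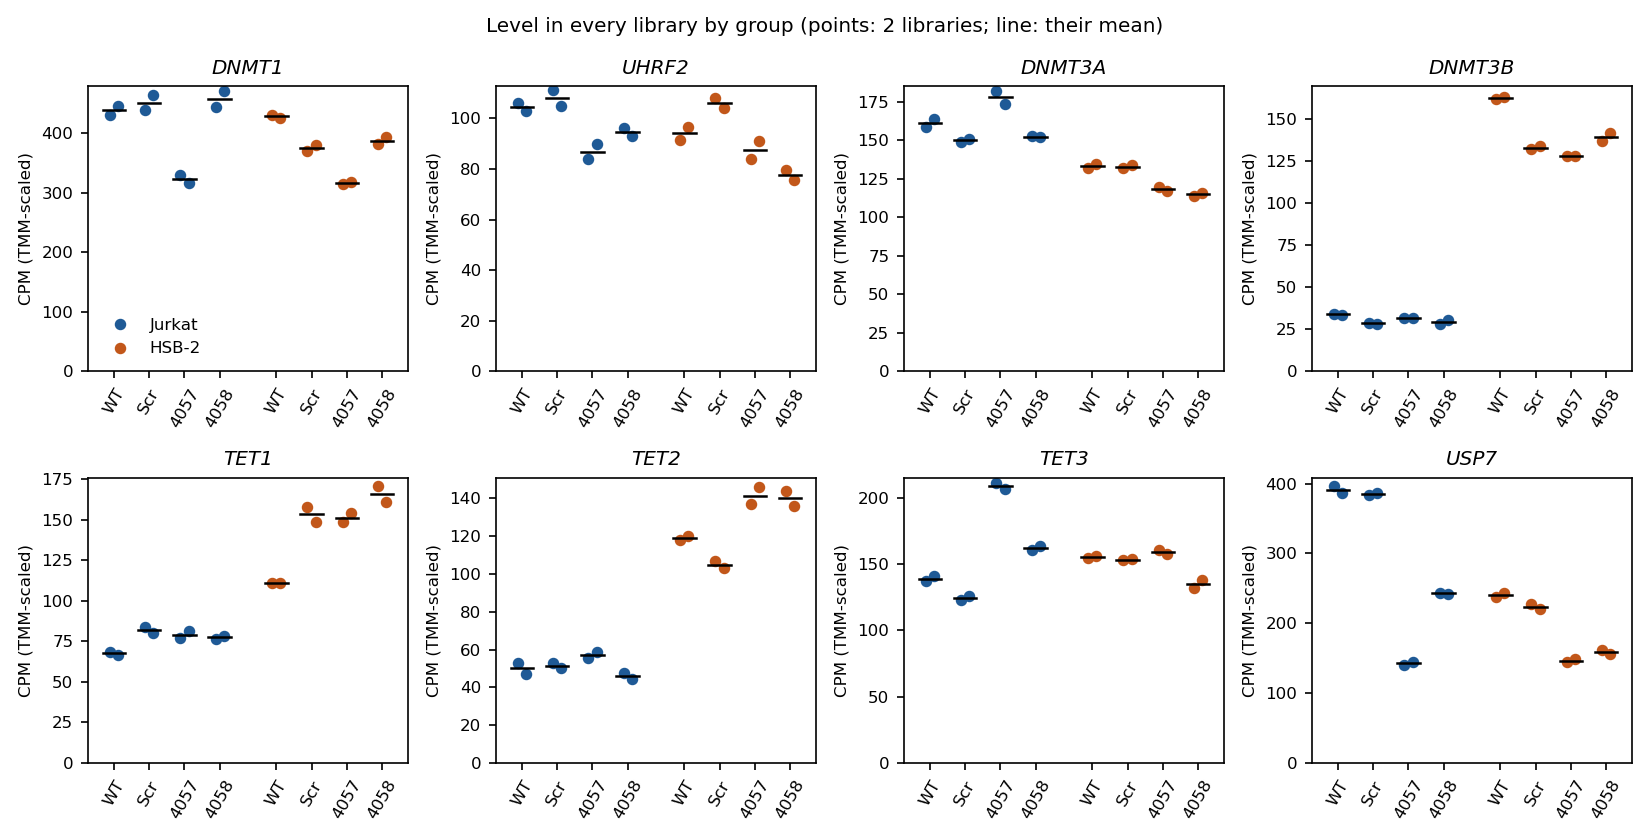
Level in each library of 7 DNA methylation genes and of USP7, as TMM-scaled CPM (vertical axes from 0, a different scale for each gene). Blue points are Jurkat and orange points HSB-2, in the order wild-type (WT), scrambled (Scr), shRNA-4057 and shRNA-4058, and black lines are the means of 2 libraries. DNMT1 was lowest with shRNA-4057 in both lines (316 to 329 CPM in Jurkat, 314 and 318 CPM in HSB-2) and TET3 was highest with it in both (211 and 207 CPM in Jurkat, 161 and 158 CPM in HSB-2).

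DNMT1, the maintenance methyltransferase, is encoded on the minus strand of chromosome 19 between 10244018 and 10341962 (GRCh37). It fell with one hairpin and not with the other, in both lines. Jurkat scrambled libraries had 438 and 464 CPM, shRNA-4057 libraries 329 and 316 CPM, and shRNA-4058 libraries 443 and 471 CPM. The shRNA-4057 libraries lay below every other Jurkat library and shRNA-4058 overlapped scrambled. Against scrambled the log2 fold change was -0.48 with shRNA-4057 (SE 0.037, adjusted p = 9.3e-11) and 0.021 with shRNA-4058 (95% confidence interval -0.055 to 0.096, adjusted p = 0.67). The latter passed with upper-quartile scaling (0.11, adjusted p = 0.035) and with the GC content and length offset (0.12, adjusted p = 0.00013).

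The same order was seen in HSB-2. Scrambled libraries had 369 and 380 CPM, shRNA-4057 libraries 314 and 318 CPM, and shRNA-4058 libraries 381 and 393 CPM, so that shRNA-4057 was again the lowest group. DNMT1 fell with shRNA-4057 (log2 -0.25, SE 0.036, adjusted p = 5.9e-06), and its difference with shRNA-4058 was 0.047 (95% confidence interval -0.028 to 0.12, adjusted p = 0.29). That difference passed with RLE scaling (0.11, adjusted p = 0.017) and was -0.015 with the GC content and length offset (adjusted p = 0.63). Set directly against each other, shRNA-4057 was lower than shRNA-4058 by -0.51 in Jurkat (SE 0.037, adjusted p = 1.3e-10) and by -0.29 in HSB-2 (SE 0.037, adjusted p = 2.1e-06). USP7 itself was at 140 to 145 CPM with shRNA-4057 and 242 to 244 CPM with shRNA-4058 in Jurkat, but at 144 to 149 and 156 to 162 CPM in HSB-2, where the hairpins differed in USP7 by -0.12 (SE 0.035, adjusted p = 0.015).

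DNMT1 is known to be transcribed with genes of S phase, and a list of 24 such genes was read beside it. With shRNA-4057 in Jurkat 20 of the 24 fell and 2 rose, where 50% of all genes tested changed, with a median log2 fold change of -0.42 against 0 over all genes. With wild-type as the reference 16 fell and 4 rose (median -0.16), where 8455 of 23063 genes tested changed. With shRNA-4058 in Jurkat, where 46.5% of all genes changed, 13 fell and 3 rose (median -0.12, all genes -0.013). But 3 fell and 14 rose with wild-type as the reference (8275 of 23063 genes changed). With the GC content and length offset 7 fell and 8 rose (11390 of 23063). In HSB-2 9 fell and 6 rose with shRNA-4057 (43.6% of all genes changed, median 0.0055, all genes -0.016), or 6 and 8 with RLE scaling. With shRNA-4058 in HSB-2 14 fell and 3 rose (52.8% of all genes changed, median -0.14, all genes -0.013). The part of cell cycle in the DNMT1 values was not tested. An exon stretch of 83 bases, 0.54% of the DNMT1 exon length, is shared with S1PR2 on the same strand, and how reads there were divided is not stated.

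UHRF2, a relative of UHRF1 with the same reader domains that does not replace it in maintenance, lies on chromosome 9 from 6413151 to 6507054 on the plus strand. Against scrambled it was the only one of the 7 genes that fell with each hairpin in each line. Of all 23063 genes tested, 6296 fell with shRNA-4057 and 6167 with shRNA-4058 in Jurkat, and 4994 and 6046 in HSB-2. How many of all genes fell with each hairpin in each line was not counted. UHRF2 in Jurkat had 111 and 105 CPM with the scrambled control, 84.0 and 89.7 CPM with shRNA-4057, and 96.3 and 92.9 CPM with shRNA-4058. Each hairpin library lay below both scrambled libraries. Log2 fold changes were -0.32 (SE 0.048, adjusted p = 6.7e-06) and -0.19 (SE 0.048, adjusted p = 0.002), and with both hairpins as 1 group the value of -0.23 missed the threshold (SE 0.074, adjusted p = 0.055), which it passed with the GC content and length offset (-0.26, adjusted p = 0.018). With upper-quartile in place of TMM scaling the shRNA-4058 value of -0.11 in Jurkat also missed it (adjusted p = 0.064).

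HSB-2 showed the lower UHRF2 levels with the other hairpin. Scrambled libraries had 108 and 104 CPM, shRNA-4057 libraries 84.0 and 90.9 CPM, and shRNA-4058 libraries 79.6 and 75.8 CPM. None of the 4 hairpin libraries reached a scrambled one. UHRF2 fell by 0.28 with shRNA-4057 (SE 0.048, adjusted p = 3.9e-05) and by 0.45 with shRNA-4058 (SE 0.048, adjusted p = 2.9e-08), and the pooled value was -0.36 (SE 0.074, adjusted p = 0.0052). The pooled call was lost without HSB-2 scrambled replicate 1 (-0.34, adjusted p = 0.065). HSB-2 wild-type cells, at 91.4 and 96.6 CPM, were below scrambled (log2 0.17 for scrambled over wild-type, SE 0.047, adjusted p = 0.0057), a call lost without HSB-2 scrambled replicate 1 (0.15, adjusted p = 0.07) or wild-type replicate 1 (0.14, adjusted p = 0.1). Against wild-type in place of scrambled, pooled UHRF2 differed by -0.19 (adjusted p = 0.1) and the fall with shRNA-4057 lost its call (-0.10, adjusted p = 0.11).

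DNMT3A, a de novo methyltransferase on chromosome 2 from 25450724 to 25565459 (minus strand), rose with a hairpin in Jurkat and fell with both in HSB-2. In Jurkat the rise was with shRNA-4057, from 149 and 151 CPM in scrambled to 182 and 174 CPM (log2 0.24, SE 0.036, adjusted p = 4e-06). With shRNA-4058 it had 153 and 152 CPM, a difference of 0.021 (95% confidence interval -0.053 to 0.096, adjusted p = 0.66), which passed with upper-quartile scaling (0.11, adjusted p = 0.026) and with the GC content and length offset (0.10, adjusted p = 0.0021). In HSB-2 it fell with both, from 132 and 134 CPM to 120 and 117 CPM with shRNA-4057 (-0.17, SE 0.036, adjusted p = 0.00046) and to 114 and 116 CPM with shRNA-4058 (-0.21, SE 0.036, adjusted p = 2.2e-05). The hairpin libraries of HSB-2 lay below both its scrambled and its wild-type libraries (132 and 135 CPM). The pooled HSB-2 value was -0.19 (SE 0.050, adjusted p = 0.017), and it missed the threshold without HSB-2 scrambled replicate 1 (-0.21, adjusted p = 0.087) or replicate 2 (-0.17, adjusted p = 0.14).

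DNMT3B, on chromosome 20 from 31350191 to 31397165 (plus strand), differed between scrambled and wild-type cells of both lines. Scrambled cells were below wild-type cells in both lines, with 28.8 and 28.4 against 34.2 and 33.6 CPM in Jurkat (-0.25, SE 0.043, adjusted p = 0.00011) and 132 and 134 against 162 and 163 CPM in HSB-2 (-0.29, SE 0.038, adjusted p = 2.3e-06). Against scrambled, DNMT3B rose with shRNA-4057 in Jurkat, where both libraries were at 31.5 and 31.6 CPM (0.14, SE 0.043, adjusted p = 0.0079). The other hairpin comparisons did not pass the test. In Jurkat shRNA-4058 gave 28.3 and 30.4 CPM (0.038, adjusted p = 0.49), which passed with upper-quartile scaling (0.12, adjusted p = 0.027) and with the GC content and length offset (0.17, adjusted p = 0.00016). In HSB-2 shRNA-4057 gave 128 and 128 CPM (-0.059, adjusted p = 0.24) and shRNA-4058 gave 137 and 142 CPM (0.065, adjusted p = 0.16). The first passed with the GC content and length offset (-0.090, adjusted p = 0.013) and the second with RLE scaling (0.13, adjusted p = 0.0084) and DESeq2 (0.13, adjusted p = 0.0035). The HSB-2 hairpin libraries were below both HSB-2 wild-type libraries, and with wild-type as the reference the pooled difference was -0.29 (adjusted p = 0.0068).

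**Figure D2:**
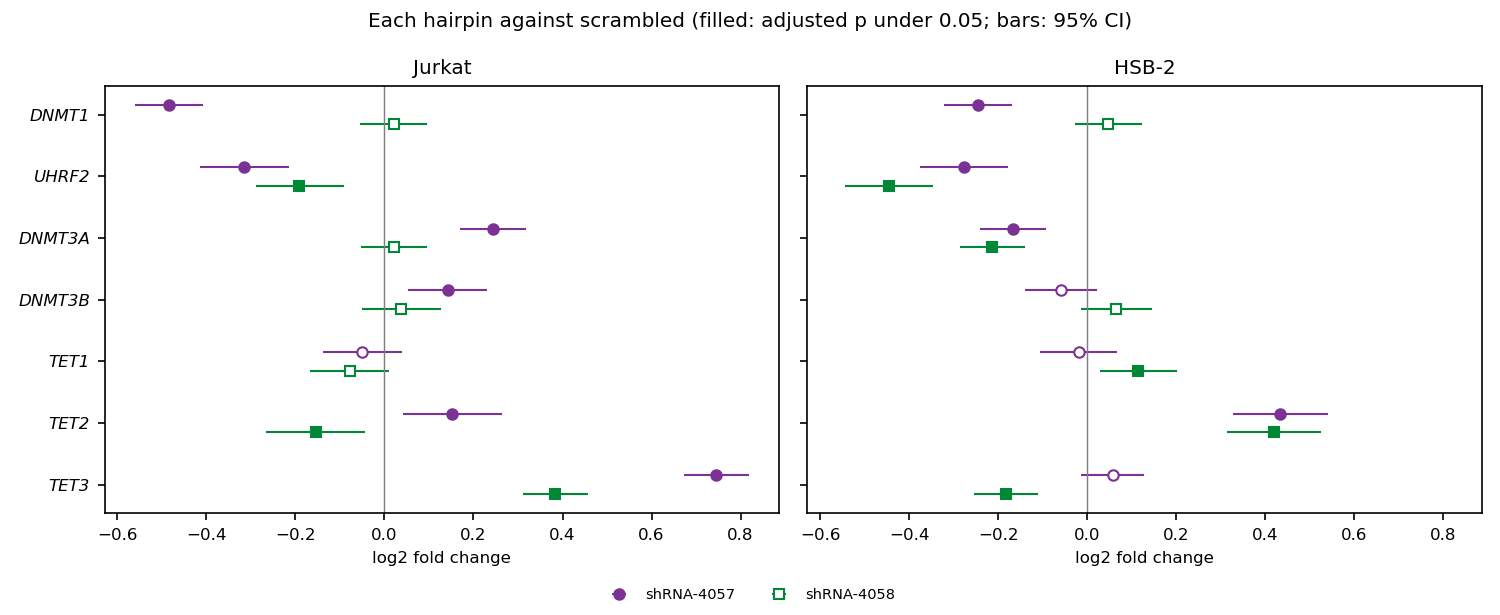
Log2 fold change of 7 genes with shRNA-4057 (purple circles) and shRNA-4058 (green squares) against scrambled cells in Jurkat (left) and HSB-2 (right). Bars are 95% confidence intervals and filled symbols have an adjusted p under 0.05. UHRF2 was below 0 in all 4 comparisons, DNMT1 with shRNA-4057 only, TET3 was above 0 with both hairpins in Jurkat, and TET2 with both in HSB-2.

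TET1, a methylcytosine dioxygenase with a CXXC domain, lies on chromosome 10 from 70320094 to 70454244 (plus strand) and was higher in scrambled than in wild-type cells of both lines. Jurkat scrambled cells had 83.8 and 80.0 CPM against 68.4 and 66.7 CPM in wild-type (0.28, SE 0.044, adjusted p = 3.4e-05). HSB-2 scrambled cells had 158 and 149 CPM against 111 and 111 CPM (0.47, SE 0.042, adjusted p = 4.4e-09). Every scrambled and hairpin library of a line was above both of its wild-type libraries. Differences between hairpins and scrambled were smaller. TET1 was at 76.6 to 81.4 CPM in the 4 Jurkat hairpin libraries, with log2 differences from scrambled of -0.050 (adjusted p = 0.36) and -0.078 (adjusted p = 0.15), or 0.040 and 0.0064 with upper-quartile scaling. With the GC content and length offset both passed as lower, at -0.081 (adjusted p = 0.029) and -0.14 (adjusted p = 0.00025). In HSB-2 it was at 149 and 154 CPM with shRNA-4057 (-0.019, adjusted p = 0.77) and rose to 171 and 161 CPM with shRNA-4058 (0.12, SE 0.042, adjusted p = 0.025). That last call was lost without HSB-2 scrambled replicate 2 (0.075, adjusted p = 0.25) or shRNA-4058 replicate 1 (0.066, adjusted p = 0.32).

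TET2, an enzyme of blood cell differentiation on chromosome 4 from 106067032 to 106200973 (plus strand), rose with both hairpins in HSB-2. Scrambled libraries had 107 and 103 CPM, shRNA-4057 libraries 137 and 146 CPM, and shRNA-4058 libraries 144 and 136 CPM. All 4 hairpin libraries were above the wild-type libraries as well, which had 118 and 120 CPM. The log2 fold change against scrambled was 0.43 with shRNA-4057 (SE 0.051, adjusted p = 1.9e-07) and 0.42 with shRNA-4058 (SE 0.051, adjusted p = 2.3e-07), and it was 0.43 pooled (SE 0.054, adjusted p = 0.00034). Against wild-type the pooled rise was 0.24 (adjusted p = 0.011), since scrambled cells were below wild-type ones (-0.19, SE 0.051, adjusted p = 0.0061). The latter call was lost without HSB-2 scrambled replicate 2 (-0.16, adjusted p = 0.067) or wild-type replicate 2 (-0.17, adjusted p = 0.052).

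In Jurkat the hairpins parted. TET2 was at 52.7 and 50.0 CPM in scrambled, 55.5 and 58.6 CPM with shRNA-4057 and 47.8 and 44.5 CPM with shRNA-4058. The hairpin groups lay on either side of scrambled without overlap. The rise with shRNA-4057 (0.15, SE 0.054, adjusted p = 0.021) and the fall with shRNA-4058 (-0.15, SE 0.054, adjusted p = 0.022) were small, and the hairpins differed from each other by 0.31 (SE 0.053, adjusted p = 6.8e-05). The rise was lost without Jurkat scrambled replicate 2 (0.14, adjusted p = 0.096) or shRNA-4057 replicate 2 (0.11, adjusted p = 0.18), and with the GC content and length offset (0.085, adjusted p = 0.059). The fall was lost without Jurkat scrambled replicate 1 (-0.12, adjusted p = 0.17), scrambled replicate 2 (-0.15, adjusted p = 0.069) or shRNA-4058 replicate 2 (-0.11, adjusted p = 0.2), and under upper-quartile scaling (-0.070, adjusted p = 0.29) or against wild-type (-0.12, adjusted p = 0.078). The direct difference of the hairpins was called in each of its 4 leave-one-out fits, from 0.25 to 0.36.

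TET3, on chromosome 2 from 74212037 to 74335303 (plus strand), had the largest response of the 7 genes, in Jurkat. Scrambled libraries had 123 and 126 CPM, shRNA-4057 libraries 211 and 207 CPM, and shRNA-4058 libraries 161 and 164 CPM. The groups were well apart, with wild-type between scrambled and the hairpins at 137 and 141 CPM. TET3 rose by 0.75 with shRNA-4057 (SE 0.035, adjusted p = 1.7e-14), or 1.68-fold, and by 0.38 with shRNA-4058 (SE 0.035, adjusted p = 3e-09), or 1.31-fold. The hairpins differed by 0.36 (SE 0.035, adjusted p = 1.4e-08).

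Pooled over the hairpins, TET3 was 0.60 higher than scrambled in Jurkat (SE 0.13, adjusted p = 0.012). Here the error term holds the gap between the hairpins, and the call was lost without Jurkat scrambled replicate 1 (0.58, adjusted p = 0.097) or replicate 2 (0.61, adjusted p = 0.093). Against wild-type it was 0.44 (adjusted p = 0.069). Scrambled cells were below wild-type ones by -0.16 (SE 0.035, adjusted p = 0.0012). In HSB-2 TET3 was at 153 and 154 CPM in scrambled, 161 and 158 CPM with shRNA-4057 and 132 and 138 CPM with shRNA-4058. It did not pass the test with shRNA-4057 (0.057, adjusted p = 0.2), except as higher with RLE scaling (0.094, adjusted p = 0.036) and DESeq2 (0.094, adjusted p = 0.025), and fell with shRNA-4058 (-0.18, SE 0.035, adjusted p = 9.8e-05). In that line too shRNA-4057 was the higher of the hairpins (0.24, SE 0.035, adjusted p = 1.6e-05). Within its exons 390 bases, 3.01% of their length, are shared with ENSG00000235499 on the same strand.

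Counted together, shRNA-4057 changed 6 of the 7 genes in Jurkat, where it changed 50% of all genes tested, and 4 of 7 in HSB-2, where it changed 43.6%. shRNA-4058 changed 3 of 7 in Jurkat (46.5% of all genes) and 5 of 7 in HSB-2 (52.8%). The scrambled libraries are shared by both hairpins of a line, and the values of the hairpins are therefore linked. The hairpins differed from each other in 5 of 7 genes in Jurkat (33.9% of all genes) and 5 of 7 in HSB-2 (24.8%). Besides the genes described, the latter 5 held UHRF2, higher with shRNA-4057 (0.17, adjusted p = 0.012), and DNMT3B and TET1, both lower (-0.13 with adjusted p = 0.021, and -0.13 with adjusted p = 0.022). With replicate 2 of HSB-2 shRNA-4057 left out all 3 lost their calls (adjusted p = 0.23, 0.1 and 0.053). UHRF2 also lost it without shRNA-4058 replicate 2 (adjusted p = 0.36), DNMT3B without shRNA-4057 replicate 1 (adjusted p = 0.084), and TET1 without shRNA-4057 replicate 1 (adjusted p = 0.15) or shRNA-4058 replicate 1 (adjusted p = 0.27). Jurkat UHRF2, at -0.12 between the hairpins (adjusted p = 0.049), lost it without shRNA-4057 replicate 1 (-0.079, adjusted p = 0.38), shRNA-4058 replicate 1 (-0.097, adjusted p = 0.26) or shRNA-4058 replicate 2 (-0.15, adjusted p = 0.052). With the hairpins pooled, 1 of 7 changed in Jurkat (28% of all genes) and 3 of 7 in HSB-2 (38.1%).

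**Figure D3:**
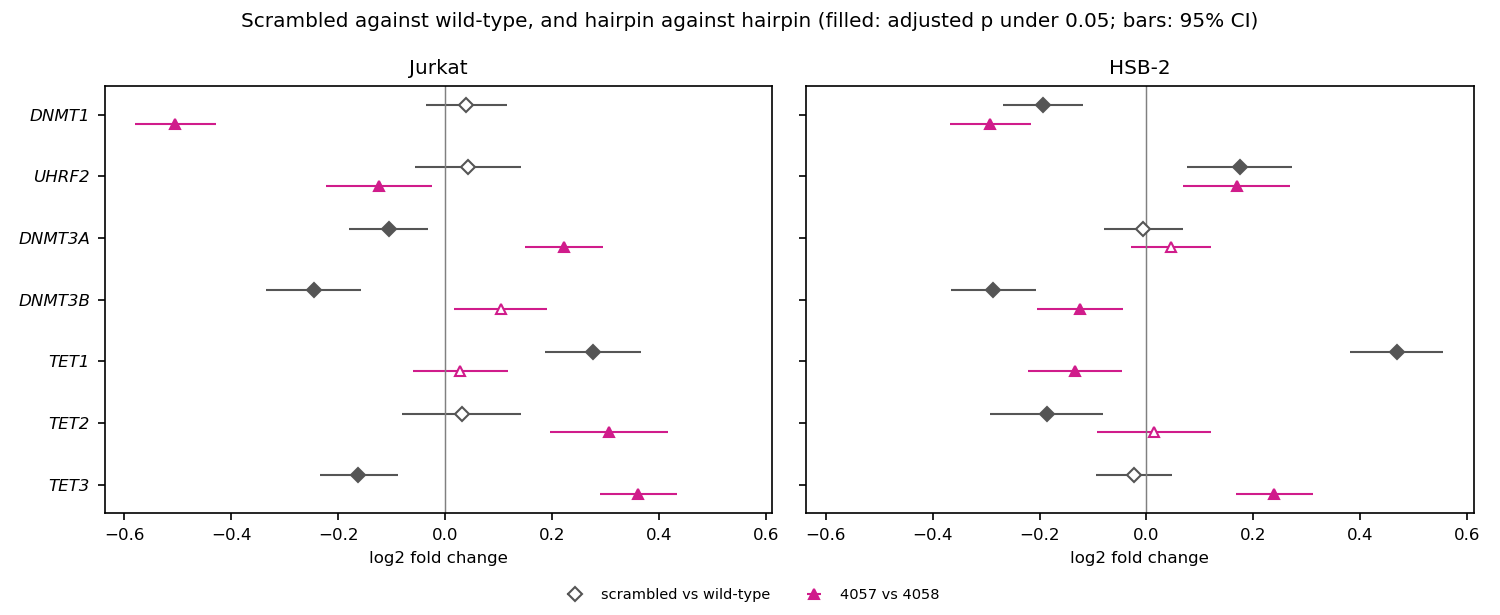
Log2 fold change of 7 genes between scrambled and wild-type cells (grey diamonds) and between shRNA-4057 and shRNA-4058 (pink triangles) in Jurkat (left) and HSB-2 (right). Bars are 95% confidence intervals and filled symbols have an adjusted p under 0.05. DNMT3B was lower and TET1 higher in scrambled than in wild-type cells of both lines, and DNMT1 was lower and TET3 higher with shRNA-4057 than with shRNA-4058 in both.

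Scrambled cells differed from wild-type cells in 4 of the 7 genes in Jurkat (25.9% of all genes) and in 5 of 7 in HSB-2 (34.1%). DNMT1 in HSB-2 was among them, lower in scrambled at 369 and 380 CPM than in wild-type at 431 and 425 CPM (-0.19, SE 0.036, adjusted p = 0.00018). Jurkat DNMT3A, at 149 and 151 CPM against 159 and 164 CPM (-0.11, SE 0.036, adjusted p = 0.032), lost its call when any one of the 4 libraries was left out (adjusted p 0.06 to 0.2). Where scrambled and wild-type cells differ, the reference sets the sign of a small hairpin effect. With wild-type as reference HSB-2 DNMT1 was lower with both hairpins (-0.44, adjusted p = 1.8e-09, and -0.15, adjusted p = 0.002), and TET1 was higher with both in both lines (0.20 to 0.58). A comparison of hairpin with hairpin uses neither reference.

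Whether the effect of the hairpins differed between the lines was tested as an interaction in the 12 hairpin and scrambled libraries. It passed for 3 of the 7 genes, where 37.7% of all genes tested passed. The HSB-2 effect minus the Jurkat effect was -0.63 for TET3 (SE 0.16, adjusted p = 0.008), 0.42 for TET2 (SE 0.13, adjusted p = 0.023) and -0.32 for DNMT3A (SE 0.10, adjusted p = 0.025). TET3 kept its call without each of the 12 libraries in turn (-0.69 to -0.57). TET2 and DNMT3A each lost theirs without any one of the 4 scrambled libraries, which leaves 1 control library in that line. The values in those fits were 0.385 to 0.464 for TET2 and -0.336 to -0.299 for DNMT3A. With both hairpins pooled the DNMT1 difference was 0.12 (95% confidence interval -0.33 to 0.58, adjusted p = 0.69) and for UHRF2 it was -0.11 (95% confidence interval -0.34 to 0.13, adjusted p = 0.49). With the hairpins taken singly more genes passed. With shRNA-4057 alone DNMT1 was at 0.24 (adjusted p = 0.00048), the fall being the smaller in HSB-2, and DNMT3B at -0.20 (adjusted p = 0.0059). With shRNA-4058 alone UHRF2 was at -0.26 (adjusted p = 0.0025), the fall being the larger in HSB-2, and TET1 at 0.19 (adjusted p = 0.0089). The TET2 difference missed the threshold with upper-quartile scaling (0.34, adjusted p = 0.057).

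Genes that act with the methylation machinery were read from lists, in pooled hairpin against scrambled cells. Against scrambled 5965 of 21288 genes tested changed in Jurkat and 8049 of 21113 in HSB-2. Against wild-type 1798 of 21381 and 5010 of 19988 did, the background of the list counts given with that reference. Of 16 tested partners of maintenance methylation (from 17 listed), 7 fell and 1 rose in pooled Jurkat cells, where 28% of all genes changed, with a median log2 fold change of -0.17 against 0.020 over all genes. With upper-quartile scaling 4 fell and 2 rose, and with wild-type as the reference 3 fell and none rose. USP11, another deubiquitylating enzyme, fell from 271 CPM in scrambled to 179 and 171 CPM with the hairpins (-0.61, adjusted p = 0.00051). ZBTB24, a zinc finger factor mutated in a syndrome of centromere instability, rose from 26.1 to 36.3 and 35.9 CPM (0.49, adjusted p = 0.0019). Its Jurkat wild-type libraries had 33.4 and 31.7 CPM, above scrambled (25.5 and 26.7 CPM) and below the hairpin libraries (35.5 to 37.1 CPM). In HSB-2, where 38.1% of all genes changed, 4 fell and 4 rose (median -0.020, all genes -0.018), or none and 1 with wild-type as the reference. There HELLS, a chromatin remodeler needed for methylation of repeats, fell from 211 to 164 and 111 CPM (-0.62, adjusted p = 0.02). Its HSB-2 wild-type libraries had 168 and 179 CPM, near shRNA-4057 at 160 and 168 CPM. SUV39H1, a histone methyltransferase of heterochromatin, rose in HSB-2 from 33.1 to 46.8 and 45.0 CPM (0.48, adjusted p = 0.00045). Its HSB-2 wild-type libraries had 41.4 and 40.9 CPM, above scrambled (32.5 and 33.7 CPM) and below the hairpin libraries (43.4 to 48 CPM).

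Of 10 methyl-CpG readers 2 rose and none fell in Jurkat (28% of all genes changed, median 0.0083), or 4 and none with upper-quartile scaling. In HSB-2 3 rose and 1 fell (38.1% of all genes changed, median 0.060), or 1 and none with wild-type as the reference. MBD2, a subunit of the NuRD complex, rose in Jurkat from 46.4 to 57.2 and 56.6 CPM (0.32, adjusted p = 0.0094). In HSB-2 the zinc finger readers ZBTB4 and ZBTB33 moved apart, the first from 98.0 to 130 and 146 CPM (0.50, adjusted p = 0.00048) and the second from 47.9 to 40.8 and 41.4 CPM (-0.22, adjusted p = 0.035). HSB-2 wild-type libraries, at 39.1 and 44.9 CPM for ZBTB33, overlapped both scrambled (51.1 and 44.7 CPM) and the hairpin libraries (39.0 to 42.6 CPM).

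Among 16 genes of demethylation repair and TET regulation, 2 rose and 4 fell in Jurkat (28% of all genes changed, median -0.25 against 0.020 over all genes) and 4 rose and 7 fell in HSB-2 (38.1%, median -0.13 against -0.018). With wild-type as the reference the numbers were 1 and 1 in Jurkat and 2 and 4 in HSB-2 (median 0.11). TDG, the glycosylase that excises oxidised methylcytosine, rose in Jurkat from 54.7 to 74.1 and 83.7 CPM (0.55, adjusted p = 0.0039), and LIG3, a ligase of base excision repair, fell from 126 to 93.8 and 95.2 CPM (-0.39, adjusted p = 0.0029). In HSB-2 GADD45A, a stress gene linked to demethylation, rose from 13.2 to 25.7 and 28.2 CPM (1.03, adjusted p = 2.4e-05). CXXC4, which binds TET2, was at 1.35 CPM in scrambled and 0.374 and 0.248 CPM with the hairpins (-2.11, adjusted p = 0.00063).

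Of 19 genes for the methyl donor S-adenosylmethionine and the TET cofactor alpha-ketoglutarate, 1 rose and 6 fell in Jurkat (28% of all genes changed, median -0.23 against 0.020 over all genes), and 2 rose and 7 fell in HSB-2 (38.1%, median -0.13 against -0.018). In HSB-2 4 rose and 2 fell with wild-type as the reference. The same pair stood at the ends of the list in both lines, with opposite signs. MAT2A, the enzyme that makes S-adenosylmethionine in most tissues, had 178 and 168 CPM in Jurkat scrambled, 272 and 279 CPM with shRNA-4057 and 272 and 265 CPM with shRNA-4058 (0.68, adjusted p = 0.00038). In HSB-2 it had 280 and 275 CPM, then 210 and 210 CPM, then 187 and 186 CPM (-0.48, adjusted p = 0.00059). All 4 hairpin libraries were thus above scrambled in Jurkat and below it in HSB-2.

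IDH2, the mitochondrial isocitrate dehydrogenase that makes alpha-ketoglutarate, did the reverse. It had 695 and 711 CPM in Jurkat scrambled, 461 and 445 CPM with shRNA-4057 and 412 and 433 CPM with shRNA-4058 (-0.66, adjusted p = 0.00041). In HSB-2 it had 325 and 340 CPM, then 450 and 440 CPM, then 462 and 487 CPM (0.47, adjusted p = 0.00027). The lines differed in the effect by -1.14 for MAT2A (SE 0.091, adjusted p = 1.5e-06) and by 1.16 for IDH2 (SE 0.084, adjusted p = 6.8e-07). In Jurkat wild-type cells MAT2A was at 224 and 221 CPM and IDH2 at 572 and 608 CPM, between scrambled and hairpin cells in each case.

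**Figure D4:**
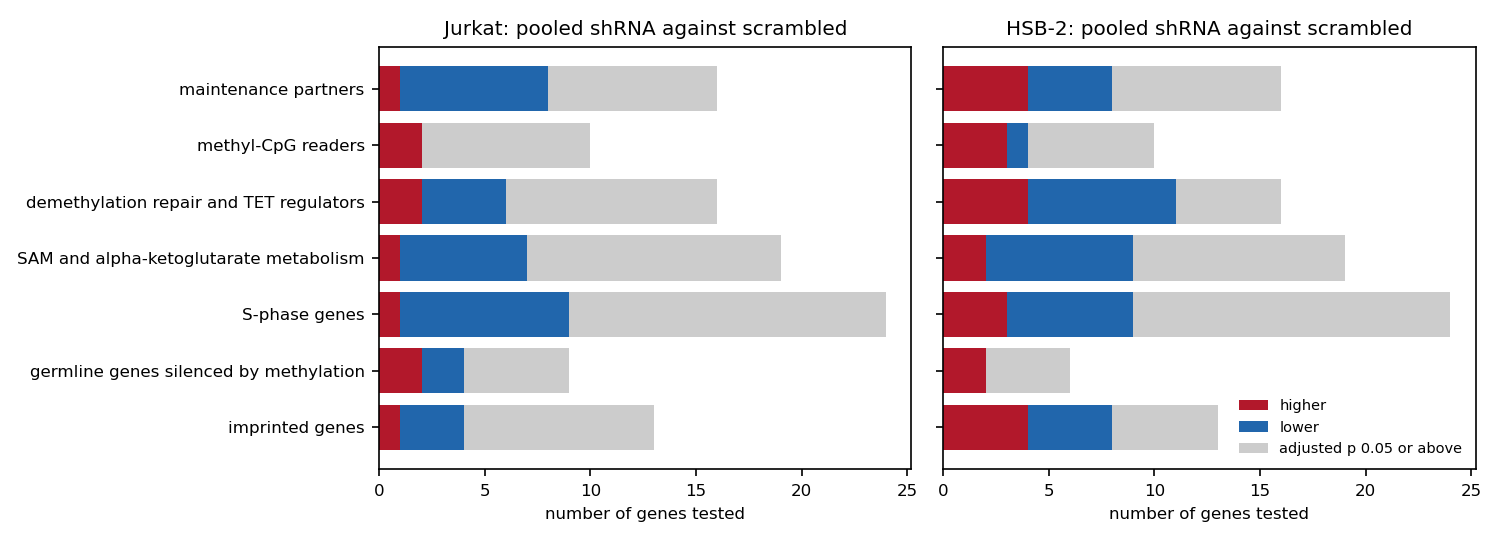
Number of genes tested in each of 7 lists that were higher (red), lower (blue) or had an adjusted p of 0.05 or above (grey) in pooled hairpin against scrambled cells of Jurkat (left) and HSB-2 (right). In Jurkat the lower genes outnumbered the higher ones among maintenance partners (7 to 1), S-phase genes (8 to 1) and donor and cofactor metabolism (6 to 1), and in HSB-2 they did so among S-phase genes (6 to 3) and metabolism (7 to 2), with maintenance partners even (4 to 4). With wild-type as the reference the Jurkat counts were 3 to 0, 1 to 2 and 4 to 1. Over all Jurkat genes 1798 of 21381 tested were called with that reference, against 5965 of 21288 with scrambled. In HSB-2 8049 of 21113 were called against scrambled. Bars also show lower genes ahead among demethylation repair and TET regulators (4 to 2, then 7 to 4 in HSB-2). The same held for Jurkat imprinted genes (3 to 1). Higher genes led among methyl-CpG readers (2 to 0, then 3 to 1 in HSB-2) and HSB-2 germline genes (2 to 0). Jurkat germline (2 to 2) and HSB-2 imprinted genes (4 to 4) were even. BRDT (germline) and GRB10 (HSB-2, imprinted) passed the filter only through hairpin libraries.

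S-phase genes pooled over the hairpins showed 8 lower and 1 higher of 24 in Jurkat (28% of all genes changed, median -0.25 against 0.020 over all genes), and 6 lower and 3 higher in HSB-2 (38.1%, median -0.030 against -0.018). With wild-type as the reference the Jurkat list had 1 lower and 2 higher (median 0.0069). CDT1, a licensing factor of replication origins, fell in Jurkat from 301 to 152 and 168 CPM (-0.89, adjusted p = 0.00032), and POLA1, the catalytic subunit of DNA polymerase alpha, was the gene that rose, from 70.1 to 79.4 and 96.6 CPM (0.35, adjusted p = 0.05 after rounding, under the threshold). In HSB-2 RRM2, of ribonucleotide reductase, rose from 220 to 387 and 348 CPM (0.75, adjusted p = 4.9e-05). In Jurkat 22 of the 24 were higher in scrambled than in wild-type cells and none lower (25.9% of all genes differed, median 0.25, all genes -0.0042).

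Germline genes, whose promoters are commonly silenced by methylation in body cells, and imprinted genes were also read as lists. Methylation was not measured, and whether these genes are methylated in Jurkat or HSB-2 is not shown here. Of 20 germline genes 9 were high enough to test in Jurkat, where 2 rose and 2 fell (28% of all genes changed), and 6 in HSB-2, where 2 rose and none fell (38.1%). These counts describe only the genes that passed the filter on low counts. BRDT, among those that rose in each line, passed it only through hairpin libraries, so its direction there was fixed by the filter. With wild-type as the reference none rose in either line. BRDT, a bromodomain gene of the testis, had 1 and 0 counts in Jurkat scrambled libraries and 11, 10, 5 and 5 counts in the hairpin libraries. In HSB-2 it had 0 and 2 counts in scrambled, 9, 14, 33 and 3 counts in the hairpin libraries, and 9 and 13 counts in wild-type cells. At such depth no fold is given, and the HSB-2 wild-type libraries, at 0.0395 and 0.137 CPM, overlapped the hairpin libraries, at 0.0444 to 0.159 CPM.

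TDRD9, a helicase that silences transposons in germ cells, was the abundant member of that list in Jurkat and fell there from 44.7 and 44.3 CPM in scrambled to 12.2 and 11.9 CPM with shRNA-4057 and 15.8 and 15.3 CPM with shRNA-4058 (-1.66, SE 0.13, adjusted p = 0.00027). In HSB-2 it was at 0.187 and 0.216 CPM in scrambled, 1.39 and 1.31 CPM with shRNA-4057 and 0.471 and 0.326 CPM with shRNA-4058 (2.11, SE 0.60, adjusted p = 0.022), and the line difference was 3.78 (SE 0.58, adjusted p = 0.00027). Wild-type cells stood between scrambled and hairpin cells in Jurkat (26.5 and 25.9 CPM), while HSB-2 wild-type cells, at 0.368 and 0.494 CPM, overlapped shRNA-4058.

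Of 20 imprinted genes 13 were tested in each line, and 1 rose and 3 fell in Jurkat (28% of all genes changed, median -0.062, or 0.078 with the GC content and length offset) against 4 that rose and 4 that fell in HSB-2 (38.1%, median -0.38). KCNQ1OT1, the long non-coding RNA of an imprinted domain, rose in Jurkat from 26.5 to 34.9 and 38.9 CPM (0.51, adjusted p = 0.0051). Its Jurkat wild-type libraries, at 34.2 and 35.8 CPM, lay within the range of shRNA-4057 (33.7 and 36.1 CPM). CDKN1C, a cell cycle inhibitor of the same domain, fell in Jurkat from 8.46 to 5.55 and 4.33 CPM (-0.75, adjusted p = 0.0085). In HSB-2 L3MBTL1, a chromatin compaction gene, fell from 14.9 to 3.39 and 2.49 CPM (-2.34, adjusted p = 6.9e-06). GRB10, a growth factor adaptor, had 4 and 0 counts in HSB-2 scrambled libraries, 8, 10, 60 and 13 counts with the hairpins, and 43 and 21 counts in wild-type cells. The wild-type libraries, at 0.188 and 0.221 CPM, lay within the range of the hairpin libraries (0.0934 to 0.289 CPM). GRB10, among the 4 that rose, passed the filter on low counts only through hairpin libraries, so its direction was fixed by that filter.

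Finally, for each of the 7 genes the 3 genes most like it were taken from 12557 genes, by Pearson correlation of log2 CPM over the 16 libraries after the mean of each line was removed. The libraries share groups of 2, so the points are not independent, and the values are a description. Among those most like DNMT1 were USP10 (0.94) and RTCB (0.94). UHRF2 was most like NFXL1 (0.97), CEP70 (0.97) and TRIM36 (0.96), and DNMT3A like ITPR3 (0.97), ZMIZ2 (0.97) and ADARB1 (0.96). DNMT3B was most like PIF1 (0.94), SYNE4 (0.89) and AGPAT4 (0.89). Among the TET genes TET1 was nearest to ZSCAN25 (0.95), ZNF12 (0.92) and ZNF304 (0.91), TET2 to CKAP2L (0.95), IL16 (0.94) and CD53 (0.93), and TET3 to TNRC6A (0.97), KMT2C (0.97) and DISP3 (0.96).

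Within the set, the strongest pair over all 16 libraries was DNMT3B with TET1, at -0.81, which had the same sign in Jurkat (-0.77) and HSB-2 (-0.84) with 8 libraries each. In each line wild-type cells had the highest mean DNMT3B (33.9 CPM in Jurkat, 162 CPM in HSB-2) and the lowest mean TET1 (67.6 and 111 CPM). The part of that difference in the correlation was not tested. UHRF2 and TET3 were at -0.96 in Jurkat and 0.58 in HSB-2, and DNMT1 and DNMT3A at -0.89 in Jurkat and 0.51 in HSB-2. Those pairs had opposite signs in the lines, and no p is given for any pair, since the libraries of a group share their condition.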

How the data were processed

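Ribosomal RNA-depleted RNA of 16 libraries was sequenced, 2 in each of 8 groups that were taken from the labels. Per the study's methods, the authors aligned reads with BWA to GRCh37 and to transcript collections and counted them with HTSeq. The submitters' processing notes also name STAR and give HTSeq 0.6.1p1 and hg19. What was deposited is a table of raw counts of genes with no normalization. Its strand setting and its annotation release are not given in the sources used here, although the library kit marks strand. Rows carried Ensembl identifiers, and symbols, coordinates and lengths came from GENCODE 44 on GRCh37, which held 96.1% of the 57820 identifiers.

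Counts were tested in R 4.3.3 with edgeR 4.0.16 (filterByExpr, TMM, quasi-likelihood F-test, Benjamini-Hochberg adjustment over all genes tested). SE was the absolute log2 fold change divided by the square root of F. Pooled comparisons set the 4 hairpin libraries of a line against its 2 scrambled ones (21288 genes tested in Jurkat, 21113 in HSB-2). The 2 libraries of each hairpin entered that group as if independent. Only 2 hairpins thus stand behind pooled p-values and list counts, which treat them as 4 replicates. Single hairpins, hairpin against hairpin, scrambled against wild-type and line against line came from 1 fit of 16 libraries (23063 genes), and the line difference was an interaction in 12 libraries (22732 genes). Alternatives were RLE and upper-quartile scaling, DESeq2 1.42.0, no filter or at least 10 counts in each library, an offset for GC content and length, a replicate block, other reference or library sets, and each library left out in turn. The procedure was tested on simulated data.

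The 8 genes and the lists were chosen with earlier results of these data known. Named were the 8 genes, at most the called gene with the highest and the one with the lowest pooled log2 fold change of each list in each line, and the 3 genes most like each of the 8 (mean of at least 1 CPM in each line, log2 of CPM + 0.5). Some genes that this rule names are not reported here. USP7, S1PR2 and the marker genes were named for checks of the samples. Replicate counts differed by 5.12 to 18.4 times sampling noise (chi-square per degree of freedom), so none were merged. A count of 0 allows up to 3 counts, or 0.0132 to 0.0444 CPM by library, for counting error only.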

Additional observations from a re-analysis of the deposited data

Results flagged for a closer look

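The effect of the hairpins differed between HSB-2 and Jurkat in 3 genes by the interaction term of edgeR's quasi-likelihood fit over 12 libraries. TET3, a methylcytosine dioxygenase, had a difference of -0.63 on the log2 scale (HSB-2 minus Jurkat). For TET2, of the same family, it was 0.423. For DNMT3A, a de novo methyltransferase, it was -0.323. Without any one of the 4 scrambled libraries, which leaves 1 control library in that line, the TET2 and DNMT3A calls were lost. Their values stayed at 0.385 to 0.464 for TET2 and -0.336 to -0.299 for DNMT3A. TET3 kept its call without each of the 12 libraries.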

How the results depend on the processing

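Over the 7 genes, all comparisons and all alternatives, 1009 values kept their direction and their side of the threshold, 57 lost a call, 38 gained one and 51 changed sign. The cause was not tested for any of them. Of the 7 genes, 1 was called in pooled Jurkat (5965 of all 21288 genes tested). This count was 3 with the GC content and length offset (6518 of 21288) and 5 with the hairpins as separate groups (11837 of 23063). With scrambled and wild-type cells as reference it was 2 (5390 of 20215). Jurkat shRNA-4058 had 3 (10718 of 23063) and, with that offset, 7 (11390 of 23063). The HSB-2 hairpins differed in 5 (5716 of 23063), or 3 with upper-quartile scaling (5705 of 23063). The line difference held 3 (8559 of 22732), or 5 with the offset (8775 of 22732). It held 5 with shRNA-4057 alone (10769 of 23063) and 5 with shRNA-4058 alone (12826 of 23063). Leaving out single libraries gave 0 to 2 in pooled Jurkat, 1 to 3 in pooled HSB-2, 2 to 4 between the HSB-2 hairpins and 1 to 3 for the line difference.

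Changes of sign were as follows. In pooled Jurkat DNMT3B was -0.00193 with scrambled and wild-type as reference and -0.126 with wild-type, TET1 was 0.104, 0.243 and, with upper-quartile scaling, 0.0224, and TET2 was -0.0446 with the offset and -0.00117 with separate hairpins. Against wild-type in Jurkat, shRNA-4057 gave DNMT3B -0.104 and TET1 0.228, and shRNA-4058 gave DNMT3A -0.084, DNMT3B -0.208 and TET1 0.199. Upper-quartile scaling gave TET1 0.0402 and 0.00637. In pooled HSB-2 DNMT3B was -0.00256 with at least 10 counts, -0.0712 with the offset, -0.144 with both references and -0.287 with wild-type. With HSB-2 shRNA-4057 TET1 was 0.0178 with DESeq2 and with RLE scaling, 0.083 with the offset and 0.449 against wild-type. With HSB-2 shRNA-4058 DNMT1 was -0.0148 with the offset and -0.147 against wild-type, and DNMT3B -0.222 against wild-type. Between the HSB-2 hairpins TET2 was -0.00983 with DESeq2, -0.0643 with the offset and -0.00994 with RLE scaling. Between HSB-2 scrambled and wild-type cells the offset gave DNMT3A 0.0379 and TET3 0.0181. For the line difference DNMT3B was 0.0274 with shRNA-4058 alone, and UHRF2 was 0.00359 with the offset and 0.0379 with shRNA-4057 alone.

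Leaving out single libraries moved values across 0 for pooled Jurkat TET2 (-0.0329 to 0.0991), Jurkat shRNA-4058 DNMT1 (-0.0251 to 0.103) and DNMT3B (-0.016 to 0.087), TET1 between the Jurkat hairpins (-0.012 to 0.0681), Jurkat scrambled against wild-type DNMT1 (-0.00976 to 0.0798), TET2 (-0.0488 to 0.117) and UHRF2 (-0.00421 to 0.081), pooled HSB-2 DNMT3B (-0.0155 to 0.0468) and TET3 (-0.0973 to 0.00128), HSB-2 shRNA-4057 TET1 (-0.061 to 0.0202), TET2 between the HSB-2 hairpins (-0.0738 to 0.0577) and HSB-2 scrambled against wild-type DNMT3A (-0.0204 to 0.00843).

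Over all genes, pooled Jurkat called 5965 genes, against 11837 with separate hairpins, 1798 with wild-type as reference, and 1873 and 1434 without scrambled replicate 1 and 2. Pooled HSB-2 called 8049, against 12077, 5010, 3801 and 4518 in the same order. The HSB-2 hairpins differed in 5716 genes, or 3713 without shRNA-4057 replicate 2. Higher genes were 44.1% of those called in pooled Jurkat (55.8% with the offset, 54.7% with upper-quartile scaling), 45.4% with Jurkat shRNA-4057 (56.4% with upper-quartile scaling) and 42.5% with Jurkat shRNA-4058 (54% and 54.3%).

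The labels number the replicates of each group. Over 28 pairs of groups the deviations of same-numbered libraries correlated between -0.377 and 0.433 (median -0.0511), and 12 pairs were over 0.1. Libraries of 5 of the 8 groups correlated best with their own number. With 2 libraries in a group these values cannot decide whether the numbers mark a pairing, and the main fits used none. With a replicate block 1 of the 7 genes was called in pooled Jurkat and 3 in pooled HSB-2, with 4156 and 6691 genes over all. Between the Jurkat hairpins the block left 4 of 5, without UHRF2 (adjusted p = 0.054), and it changed no other call among the 7 genes.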
